A study of Mus musculus with 6 samples.

Results

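The 7 GABA-A receptor subunit genes Gabra2, Gabra3, Gabra4, Gabra5, Gabrb1, Gabrb2 and Gabrd were followed through 6 hippocampal arrays, 3 from mice lacking inhibitor-1 and 3 from wild-type mice. Members were all probe sets that the platform annotation gives to exactly 1 of these symbols, which made 21 of 45101. The filter on low values, described below, kept 18 of the 21. Total RNA of the hippocampus was hybridised to 1 Affymetrix mouse array per sample. Inhibitor-1, encoded by Ppp1r1a, blocks protein phosphatase 1 once protein kinase A has phosphorylated it. The knockout group is labelled inhibitor-1 knock-out and the other group wild-type. No strain, age, sex, targeting construct or number of animals is given, so the 3 arrays of a group may be technical repeats, and p-values cover only the spread among them.

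GABA-A receptors are chloride channels built from a ring of subunits, and they carry most fast inhibition in the hippocampus. GABA binds between an alpha and a beta subunit, and the third kind of subunit, gamma or delta, helps set whether a receptor sits at the synapse or outside it. Alpha 2 is a subunit of synapses on pyramidal neurons, the axon initial segment among them. Alpha 5 is found largely outside synapses on pyramidal neurons, and alpha 4 with delta forms the extrasynaptic receptors of dentate granule neurons that carry tonic inhibition. Some beta subunits are substrates of protein kinase A, and protein phosphatase 1 can remove that phosphate. The scaffold proteins encoded by Plcl1 and Plcl2 bind this phosphatase. The arrays measured transcripts only.

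Gabra2, Gabra4 and Gabrb1 lie in a cluster of subunit genes on chromosome 5. In the RefSeq gene table of GRCm38.p6 the protein-coding order there is Gabrg1, Gabra2, Cox7b2, Gabra4 and Gabrb1, with 0 protein-coding genes between the last pair. Gabra4 is on the minus strand and Gabrb1 on the plus strand, and their first annotated starts lie 387 bases apart, each inside the span of the other gene. The upstream bases of these starts are shown because the tested probe sets whose groups did not overlap, on the deposited scale, all belonged to these neighbours. Each line is the 250 bases before the start, 5′ to 3′ on the gene's own strand, from RefSeq (GRCm38.p6), with CG pairs in capitals. The Gabra4 line covers chr5:71658309-71658558 on the minus strand and the Gabrb1 line chr5:71657671-71657920 on the plus strand.
Gabra4: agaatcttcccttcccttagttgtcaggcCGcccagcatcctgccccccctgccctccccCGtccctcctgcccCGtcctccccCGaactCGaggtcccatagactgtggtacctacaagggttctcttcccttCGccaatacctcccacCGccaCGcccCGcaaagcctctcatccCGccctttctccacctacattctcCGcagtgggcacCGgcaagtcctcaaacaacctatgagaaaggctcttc
Gabrb1: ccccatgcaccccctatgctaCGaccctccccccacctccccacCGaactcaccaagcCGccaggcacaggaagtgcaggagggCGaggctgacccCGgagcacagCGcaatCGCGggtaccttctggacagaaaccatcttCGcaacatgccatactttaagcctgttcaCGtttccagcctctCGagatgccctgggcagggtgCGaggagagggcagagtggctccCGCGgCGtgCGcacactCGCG
The Gabra4 stretch holds 12 CG pairs and the Gabrb1 stretch 18, where the median over 32851 RefSeq promoter windows was 6. Gabra2, in the same cluster, also had 18, and Gabra5 had 9. Another annotated start of Gabrb1 had 6, and both starts of Gabra3 had 0. Of the 7 genes 6 had promoter windows in that table (not Gabrd), 10 windows in all, each from 250 bases before to 50 after a start. The cAMP response element TGACGTCA, the sequence bound by the protein kinase A target CREB, was searched on both strands and was in 0 of the 10 windows, against 1.79% of all windows. Its shorter core TGACG, which lies within it, was in 1 of 10, a window of Gabrb2, against 20.8% of all windows. The letters GCGTGGGCG, bound by EGR factors, were in 0 of 10, against 0.612%, and TATAAA was in 3 of 10, against 13.6%, both searched on both strands. The windows of Gabra3 overlap each other, and the TATAAA counted in both is the same site, so the 10 windows are not independent.

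The deposited values are intensities on a linear scale, scaled to a common level. They were taken as log2(intensity + 16), and probe sets in the lowest 40% by mean, an intensity of about 332, were left out, so that 26999 were tested with limma. Ppp1r1a, at its only probe set, had intensities of 272, 249 and 347 in KO arrays and 9061, 8370 and 10345 in wild-type arrays (log2 change -4.93, SE 0.18, limma adjusted p = 3.58e-07). Replicate 1 of both groups stood apart with the lowest median intensity, 542 against 664 and 666 on the other KO arrays, and 574 against 621 and 642 on the other wild-type arrays. Markers of the dentate gyrus, CA1 and CA3 were above the filter, 21 of 21 listed. Of 21 markers listed for thalamus and habenula, striatum and neocortex, 17 were as well. In that order, a probe set was named for 8 of 8, 5 of 7 and 5 of 6 markers, and 7, 5 and 5 were above the filter. The mean log2 level of 10 choroid plexus and ependymal markers was 11.84, 12.64 and 12.45 in KO and 11.15, 12.12 and 12.14 in wild type, and 9 of the 10 had a change above 0. That of 10 meningeal and fibroblast markers was 11.47, 11.99 and 11.85 in KO and 11.29, 11.47 and 11.31 in wild type, and 10 of the 10 had a change above 0. Of 10 oligodendrocyte markers 7 had a change below 0 and 3 above. At an unadjusted limma p under 0.05, 3 of the 10 were lower, where 2.31% of 12493 named genes were. Their mean log2 level was 13.91, 13.87 and 14.01 in KO and 14.11, 14.00 and 13.98 in wild type, with overlap. The lists share no member with the subunits, and the part of bordering tissue or of oligodendrocytes in the results below was not tested.

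None of the 18 tested subunit probe sets differed between KO and wild type in limma at an adjusted p under 0.05: 0 were higher, where 0% of all tested probe sets were, and 0 were lower, where 0.0111% were. The lowest adjusted p among them was 0.988. At an unadjusted p under 0.05, 1 of 18 was higher in KO, against 2.17% of all tested probe sets, and 0 of 18 were lower, against 2.21%. The median log2 change of the 18 was 0.08, beside 0.004 over all 26999. Their median absolute log2 change was 0.10, beside 0.12 over all. Of the 18, 13 had a log2 change above 0, against 50.9% of all, and 5 below 0, against 49.1%. The 18 come from 7 genes, 5 from Gabrb2 and 4 from Gabrb1, so they are not 18 independent measurements. In hippocampal tissue, fewer cells of a type and less RNA per cell cannot be told apart.

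**Figure D1:**
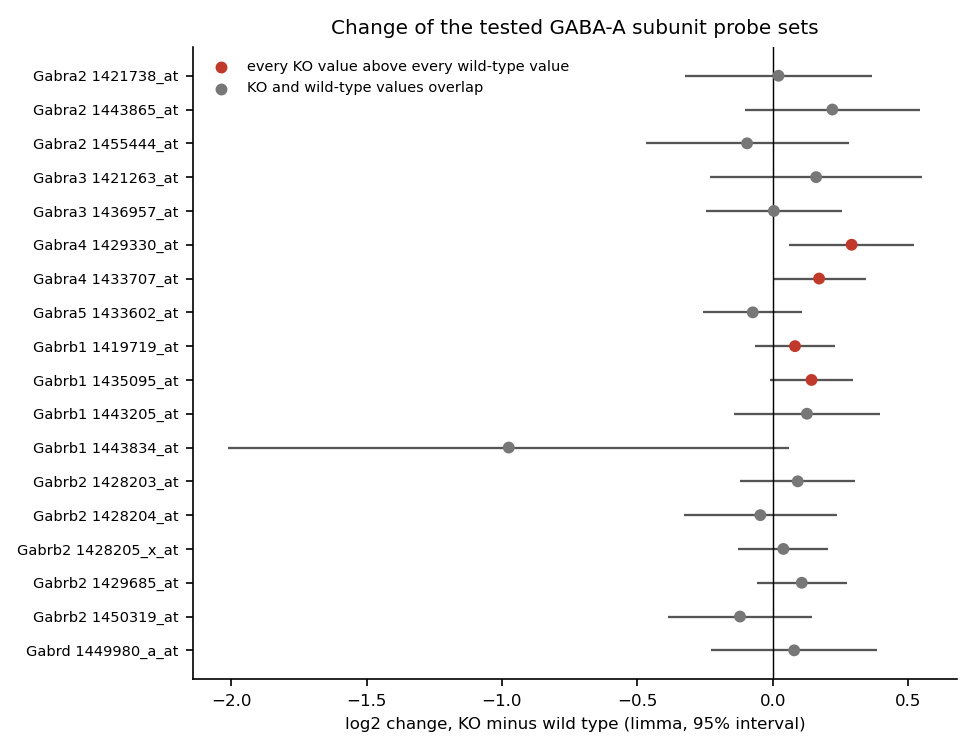
Log2 change between KO and wild type (horizontal axis) of the 18 tested subunit probe sets, with the 95% interval from limma as a line. Red points are probe sets whose KO values all lie above the wild-type values (Gabra4 and Gabrb1, 4 probe sets), and grey points those with overlapping groups; Gabrb1 1443834_at, the dimmest, has the widest interval.

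Gabra4 encodes alpha 4, the partner of delta in dentate granule neurons. At probe set 1429330_at its intensity was 4795, 4706 and 4194 in KO and 3719, 3682 and 3763 in wild type. The lowest KO array lay above the highest wild-type array. The log2 change was 0.29 (SE 0.10, 95% interval 0.06 to 0.52, adjusted p = 0.988 in limma), which is 1.22-fold. This probe set had the smallest unadjusted p of the members and ranked 373 among all 26999. At 1433707_at, the brighter probe set, the intensity was 11949, 11346 and 12019 in KO and 10610, 10949 and 9823 in wild type, again without overlap. Its log2 change was 0.17 (SE 0.08, 95% interval -0.001 to 0.34, adjusted p = 0.988 in limma), or 1.13-fold, and it ranked 1225. The change was above 0 at both probe sets in 18 of 18 alternative settings, from 0.25 to 0.35 at the first and from 0.13 to 0.20 at the second. Dentate granule markers had a mean log2 level of 11.47, 11.55 and 11.37 in KO and 11.40, 11.40 and 11.38 in wild type, with overlap, and 6 of 8 had a change above 0. Their part in the Gabra4 values was not tested.

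Gabrb1, the neighbour of Gabra4, encodes beta 1 and had 4 tested probe sets. At 1435095_at the intensity was 14849, 14855 and 15638 in KO and 13894, 13544 and 13614 in wild type, without overlap (log2 change 0.14, SE 0.07, 95% interval -0.01 to 0.30, limma adjusted p = 0.988). At 1419719_at, the brightest, it was 23732, 23857 and 24098 in KO and 21461, 22715 and 23598 in wild type. The groups there were parted by a gap far smaller than the wild-type spread (log2 change 0.08, SE 0.07, 95% interval -0.07 to 0.23). At 1443205_at the groups overlapped, with 4804, 5630 and 4963 in KO and 5431, 4603 and 4127 in wild type (log2 change 0.13, SE 0.12). The remaining probe set, 1443834_at, had the opposite sign and was dim, with 511, 795 and 173 in KO and 904, 641 and 998 in wild type. Its log2 change of -0.97 (SE 0.47, 95% interval -2.01 to 0.06, limma adjusted p = 0.988) rested largely on KO replicate 3, and was -0.38 without it. The difference between 1443834_at and each of the other 3 probe sets of the gene, taken within arrays, had an exact permutation p of 0.2 (two-sided), where 0.1 is the smallest that 3 against 3 allows. The sources used here do not place these probe sets on the Gabrb1 transcript.

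Over the members, every KO value lay above every wild-type value at 4 of 18 tested probe sets, against 4.97% of all tested probe sets, and every KO value lay below at 0 of 18, against 4.91%. In either direction that is 4 of 18, against 9.89% of all. All 4 belong to Gabra4 and Gabrb1, so they are not 4 independent measurements. The count depended on the scaling. With quantile normalization it was 3, against 4.92% of all. With each array scaled to the same median it was 1, against 3.29%, and that 1 was a Gabra2 probe set, 1443865_at. Median scaling divides by the lower medians of the replicate 1 arrays, and the Gabra4 groups then overlapped, with log2 changes of 0.27 and 0.15. The count was 7 without KO replicate 2, against 8.86% of all, and 7 without wild type replicate 1, against 10.3%. Without KO replicate 1 it was 5, against 16.1%. It was 4 without KO replicate 3, wild type replicate 2 or wild type replicate 3, against 8.67%, 8.89% and 9.53%. Without replicate 1 of both groups it was 8, against 22.7%.

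**Figure D2:**
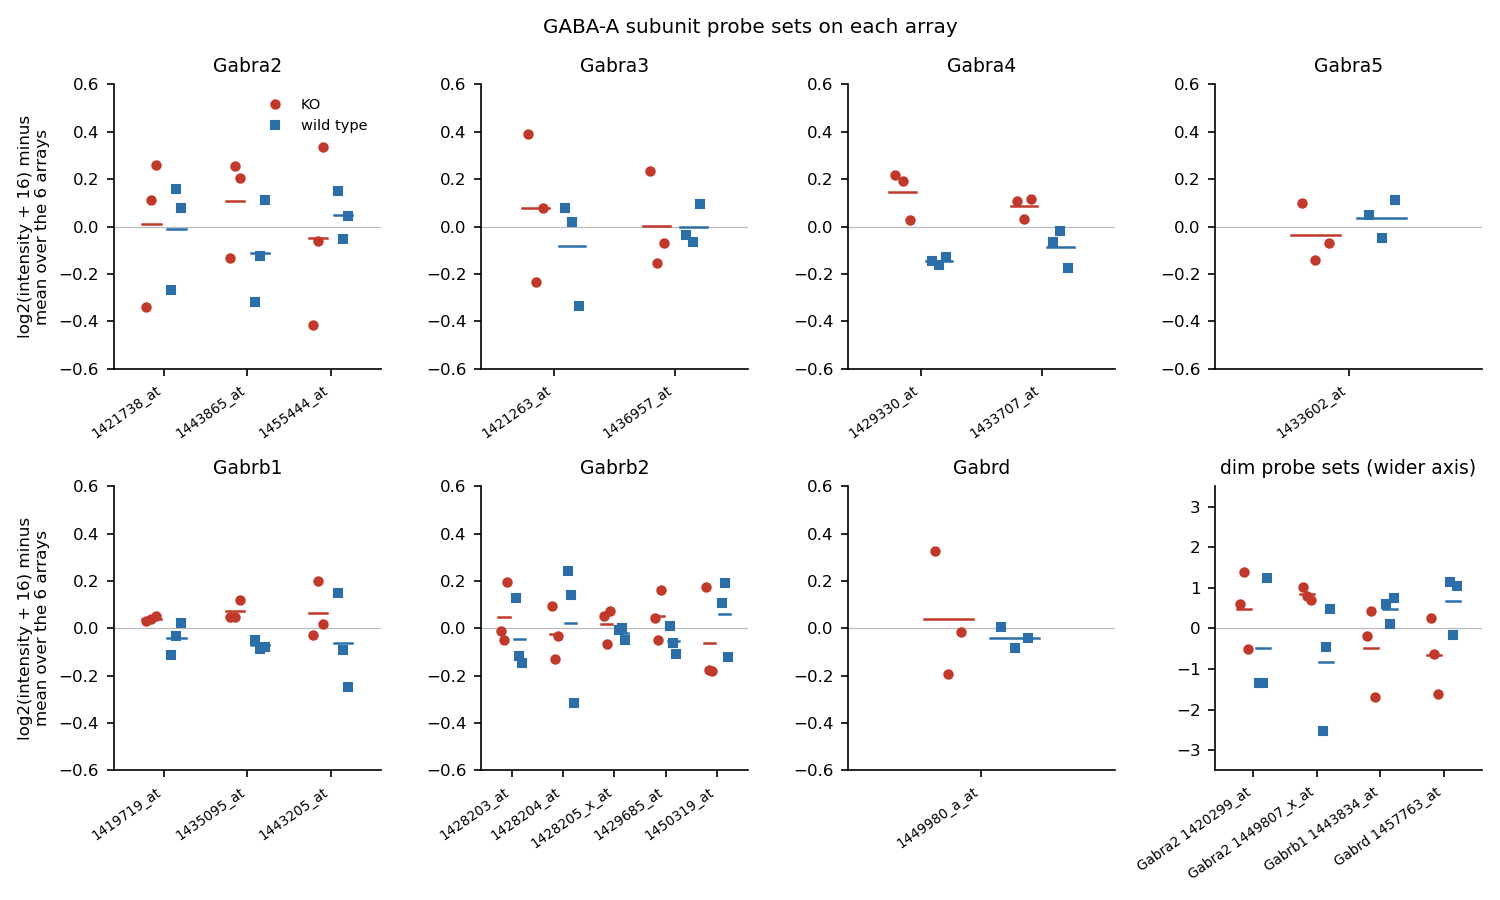
Each point is 1 array, as log2(intensity + 16) minus the probe set's mean over the 6 arrays (vertical axis); KO arrays are red circles on the left and wild-type arrays blue squares on the right of each probe set, with group means as lines. KO and wild type are parted at both Gabra4 probe sets and at Gabrb1 1419719_at and 1435095_at, while the last panel, on a wider axis, holds the 4 dim probe sets, whose arrays scatter most.

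Gabrb2 encodes beta 2, and none of its 5 tested probe sets separated the groups. The brightest, 1429685_at, had 21654, 20304 and 23484 in KO and 21118, 20099 and 19466 in wild type (log2 change 0.11, SE 0.08, 95% interval -0.06 to 0.27, limma adjusted p = 0.988). Across the 5 probe sets the log2 change ran from -0.12 to 0.11, 3 above 0 and 2 below. The lowest was 1450319_at, with 7662, 6002 and 5978 in KO and 7314, 7746 and 6242 in wild type. The widest spread within a group was at 1428204_at, where wild type had 17354, 16180 and 11803 beside 15662, 13405 and 14338 in KO. The interval of each of the 5 lay inside a log2 change of 0.5 in either direction, which is 1.41-fold.

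Gabra2, which encodes the synaptic alpha 2 of pyramidal neurons, had 5 probe sets, 3 of them tested. At the brightest, 1421738_at, the intensity was 5003, 6839 and 7594 in KO and 5252, 7082 and 6680 in wild type (log2 change 0.02, SE 0.16, 95% interval -0.32 to 0.37). Replicate 1 was the lowest array of its group in KO and in wild type alike, by more than the groups differed. At 1443865_at the values were 3221, 4227 and 4084 in KO and 2835, 3242 and 3819 in wild type, again with replicate 1 lowest in each group (log2 change 0.22, SE 0.15, 95% interval -0.10 to 0.54). At 1455444_at KO had 2609, 3339 and 4403 and wild type 3871, 3359 and 3596 (log2 change -0.09, SE 0.17). Without KO replicate 1 the log2 changes of the 3 were 0.20, 0.34 and 0.09, with limma adjusted p of 0.622, 0.424 and 0.864. The 3 probe sets thus had no common sign with all 6 arrays and 1 common sign without that array. Leaving out any other single array left their signs mixed, with -0.10, 0.17 and -0.29 without KO replicate 3. Without replicate 1 of both groups the sign was again shared (0.07, 0.24 and 0.14).

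The other Gabra2 probe sets lay under the filter, and the values given for them are from the fit without a filter. At 1449807_x_at the intensity was 479, 410 and 383 in KO and 26.5, 162 and 322 in wild type, with a log2 change of 1.68 in that fit (SE 0.74, adjusted p = 0.986 in limma). The groups did not overlap, but the wild-type arrays all lay below the intensity of 332 at the filter, and they differed among themselves by more than the groups did. At 1420299_at all 6 arrays lay below that intensity, with 113, 207 and 44.0 in KO and 17.6, 17.8 and 187 in wild type. Detection calls were not used here.

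Gabra5, the extrasynaptic alpha 5 of pyramidal neurons, had 1 probe set, 1433602_at. It read 17456, 14800 and 15551 in KO and 16890, 15758 and 17624 in wild type, with overlap. KO replicates 2 and 3 lay below all wild-type arrays and KO replicate 1 inside their range. The log2 change was -0.07 (SE 0.08, 95% interval -0.26 to 0.11, limma adjusted p = 0.988), so that the interval runs from 0.837-fold to 1.08-fold. It was the only member gene with 0 tested probe sets above 0 in the main comparison.

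Gabra3 encodes alpha 3, which is more typical of brainstem and thalamic reticular neurons than of the hippocampus, and its gene lies on the X chromosome. At 1436957_at it had 7295, 5568 and 5907 in KO and 6047, 5926 and 6635 in wild type (log2 change 0.004, SE 0.11, 95% interval -0.25 to 0.26). At 1421263_at it had 3464, 2239 and 2786 in KO and 2782, 2667 and 2085 in wild type (log2 change 0.16, SE 0.18). KO replicate 1 was the highest array at both, and the groups overlapped at both.

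Gabrd encodes delta, the subunit that takes the place of gamma in extrasynaptic receptors. At 1449980_a_at the intensity was 4387, 3057 and 3462 in KO and 3515, 3300 and 3394 in wild type. KO replicate 1 lay above and KO replicate 2 below all 3 wild-type arrays, and KO replicate 3 inside their range (log2 change 0.08, SE 0.14, 95% interval -0.23 to 0.39, limma adjusted p = 0.993), and without KO replicate 1 the log2 change was -0.06. Its other probe set, 1457763_at, lay under the filter, with 306, 157 and 72.8 in KO and 579, 224 and 537 in wild type. In the fit without a filter the log2 change was -1.33 (SE 0.64, adjusted p = 0.986 in limma), and the groups overlapped.

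Subunit balance was compared on each array as the log2 difference between the brightest tested probe sets of a pair of genes, 4 pairs in all. Such a difference has no meaning as a ratio of molecules, but a factor applied to a whole array cancels in it, apart from the pseudocount. Gabrd over Gabra4, the partners in dentate granule neurons, stood at -1.44, -1.89 and -1.79 in KO and -1.59, -1.73 and -1.53 in wild type. KO replicate 1 was the highest of the 6 arrays and the other KO arrays the lowest (difference of means -0.09, SE 0.15, exact permutation p = 0.6, two-sided, adjusted over the 4 pairs 0.8). Gabra5 over Gabra2, the extrasynaptic against the synaptic alpha of pyramidal neurons, stood at 1.80, 1.11 and 1.03 in KO and 1.68, 1.15 and 1.40 in wild type. Replicate 1 was the highest array of each group (difference -0.10, SE 0.29, exact permutation p = 0.7, adjusted 0.8). Gabrb2 over Gabrb1 averaged -0.13 ± 0.10 in KO and -0.16 ± 0.13 in wild type (SD, n = 3 each, exact permutation p = 0.8, adjusted 0.8). Gabrd over Gabra5 averaged -2.14 ± 0.14 in KO and -2.29 ± 0.07 in wild type (SD, n = 3 each, exact permutation p = 0.3, adjusted 0.8). With 3 arrays against 3 the smallest p this test can give is 0.1.

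**Figure D3:**
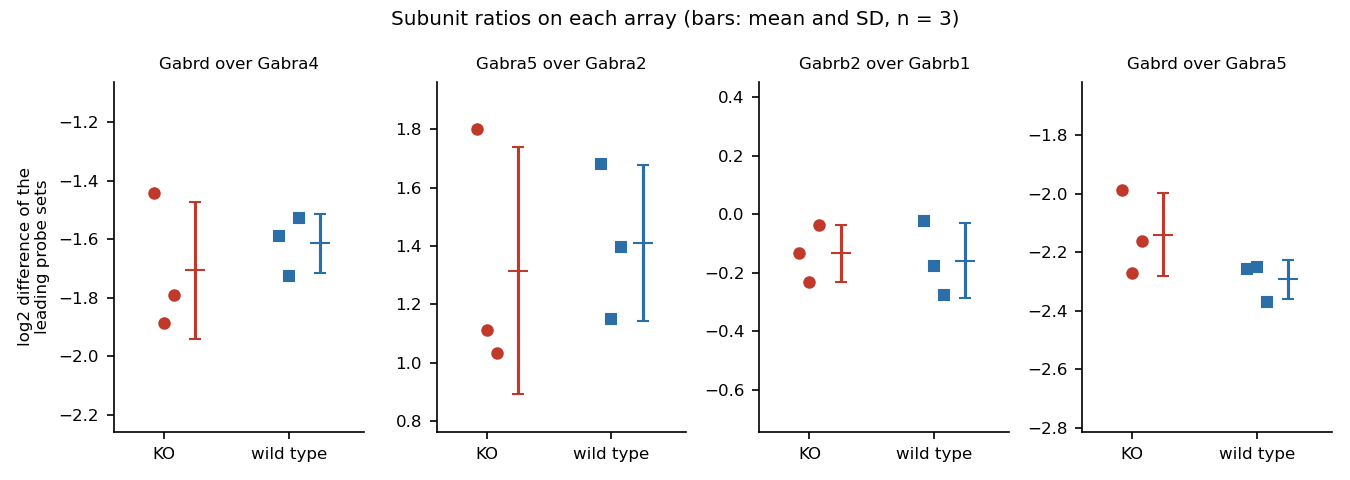
Log2 difference between the brightest tested probe sets of each subunit pair (vertical axis, the same width in each panel) on the 3 KO arrays, left, and the 3 wild-type arrays, right; bars give the mean and SD. KO and wild-type points overlap in all 4 panels, and KO replicate 1 is the highest KO array in the 3 panels with Gabrd or Gabra5.

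The 18 tested subunit probe sets had a median mean log2 level of 12.68, beside 10.98 over all tested probe sets, and a median SE of 0.12 beside 0.18. For 14 of the 18 the 95% interval lay inside a log2 change of 0.5 in either direction, as it did for 46.6% of all tested probe sets. The 4 others were Gabra2 1443865_at, Gabra3 1421263_at, Gabra4 1429330_at and Gabrb1 1443834_at. With the brightest tested probe set of each gene, 7 of 7 intervals lay inside that range.

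**Figure D4:**
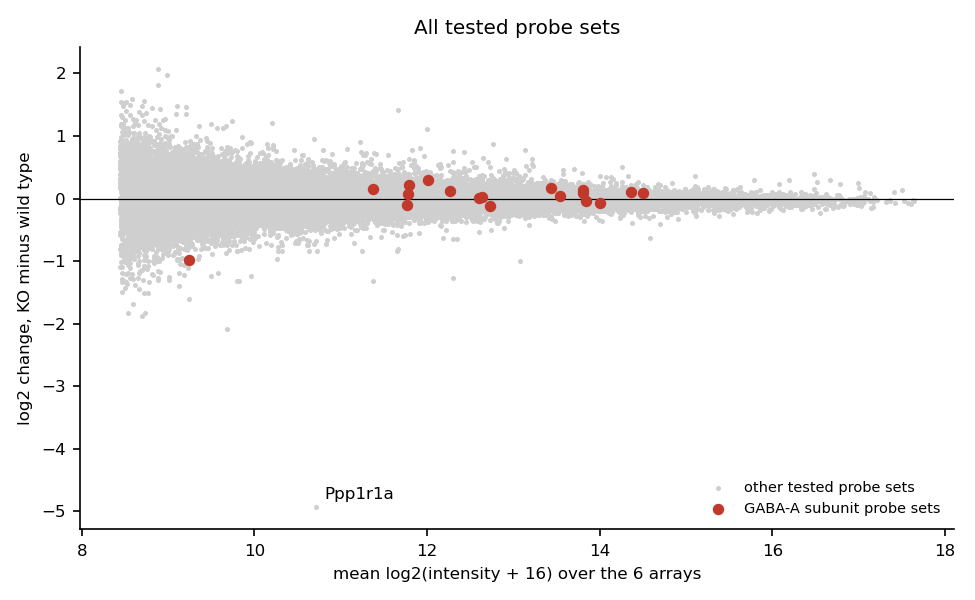
Log2 change between KO and wild type (vertical axis) against the mean log2 level over the 6 arrays (horizontal axis) for all 26999 tested probe sets in grey, with the 18 subunit probe sets in red. The subunit probe sets lie within the band of the other probe sets of their level, and Ppp1r1a, with a log2 change of -4.93, lies far below.

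Genes that make, anchor, transport or answer GABA beside these subunits were read from lists, each gene by its brightest tested probe set. Of 33 tested genes 0 were called, where 2 of all 12493 named genes and 0.0111% of all tested probe sets were. Of the 33, 0 had an unadjusted limma p under 0.05, where 2.44% of all 12493 named genes were higher and 2.31% lower by that rule. A log2 change above 0 was found for 12 and below 0 for 21, with a median of -0.02, beside 0.00 over all 12493 named genes. Of 12 other GABA-A subunit genes on the list, 8 had a probe set named for them here and 2 were above the filter. Gabrg1, the gamma 1 gene of the chromosome 5 cluster, had 1874, 2091 and 2198 in KO and 2336, 2231 and 2298 in wild type, without overlap on the deposited scale (log2 change -0.16, SE 0.14, limma adjusted p = 0.988). KO arrays lay below all wild-type arrays at 4.91% of all tested probe sets. Gabrg1 thus had the opposite sign to Gabra4 and the brighter Gabrb1 probe sets nearby. Gabrg3, a gamma 3 gene, had a log2 change of 0.16 (SE 0.25).

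Of 19 anchoring and trafficking genes 5 had a change above 0 and 14 below (median log2 change -0.06). The smallest p were those of Trak2, an adaptor for transport along microtubules (log2 change 0.16, SE 0.11), and Hap1, which takes part in receptor recycling (-0.14, SE 0.10). Plcl1 and Plcl2, named for their tie to protein phosphatase 1 after their values were seen, had log2 changes of 0.21 (SE 0.27) and -0.17 (SE 0.15), with overlapping groups. Among 7 genes of GABA synthesis, release, uptake and breakdown, Slc32a1, the vesicular GABA transporter, had 4090, 3973 and 4497 in KO and 4720, 5089 and 4584 in wild type. Its KO arrays lay below all wild-type arrays on the deposited scale (log2 change -0.20, SE 0.10, adjusted p = 0.988 in limma). The same held for 4.91% of all tested probe sets. Abat, which breaks GABA down, had 19731, 17642 and 18521 in KO and 17920, 16478 and 16776 in wild type (log2 change 0.13, SE 0.07), with overlap. Interneuron markers, of which Slc32a1, Gad1 and Gad2 are members too, had 9 of 11 changes below 0 and a mean log2 level of 12.90, 12.81 and 12.83 in KO and 12.95, 12.96 and 12.85 in wild type, with overlap. Their part in these values was not tested. The chloride transporter genes, which set the direction of the GABA current, had log2 changes of 0.12 for Slc12a2 (SE 0.09) and -0.02 for Slc12a5 (SE 0.06). Of 3 tested GABA-B genes, Gabbr1, a receptor subunit, had a log2 change of -0.08 (SE 0.07) and Kctd8, an auxiliary subunit, one of 0.10 (SE 0.30).

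The named gene most like each subunit over the 6 arrays was the one with the smallest root mean square difference from its brightest tested probe set, on log2 values centred on their own mean. It was taken from 23120 other tested probe sets with 1 symbol. Xrn2 was closest to Gabra4 (0.02, where Gabra4 itself had an SD of 0.11 over the 6 arrays), with 3027, 2842 and 3070 in KO and 2682, 2830 and 2563 in wild type. Sgtb was closest to Gabrd (0.02, beside an SD of 0.17), and its KO replicate 1 was likewise the highest array at 13094. Wwtr1 was closest to Gabra2 (0.04, beside 0.24), Pantr1 to Gabra3 (0.02, beside 0.14) and Yars2 to Gabra5 (0.01, beside 0.10). The nearest to Gabrb1 was 2410002F23Rik (0.02, beside 0.06) and to Gabrb2 Spcs2 (0.02, beside 0.10). With 6 arrays and this many probe sets a close match is easily found, and the matches describe these arrays only.

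**Figure D5:**
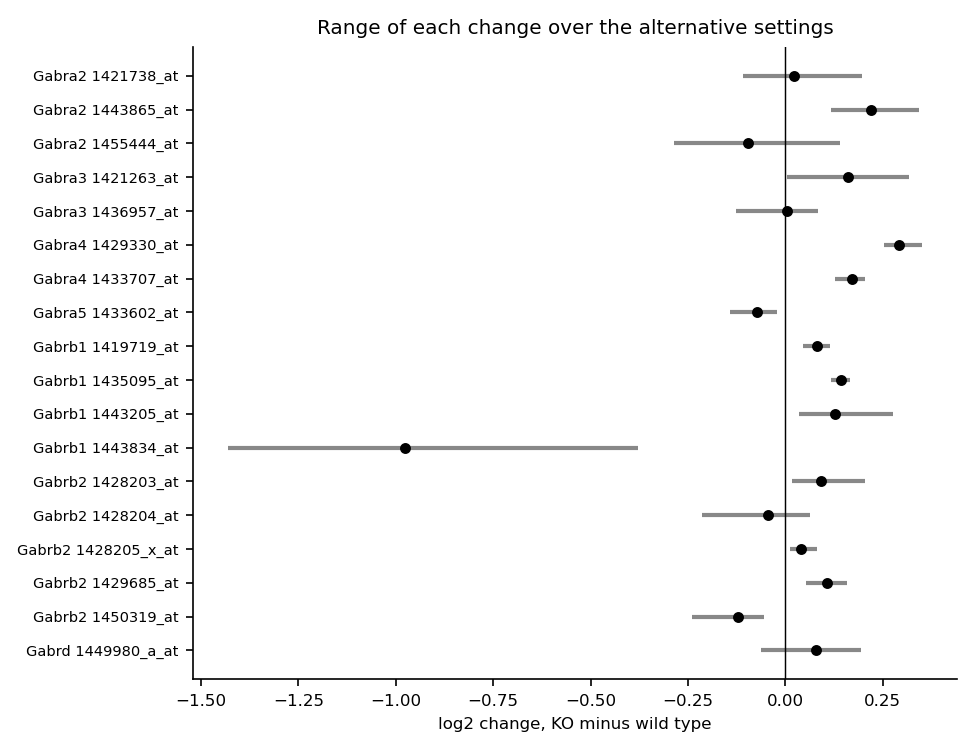
Log2 change between KO and wild type (horizontal axis) of each tested subunit probe set as reported (black point) and its range over the alternative settings (grey line). The lines of both Gabra4 probe sets and of the 3 brighter Gabrb1 probe sets stay above 0. So do those of Gabra2 1443865_at, Gabra3 1421263_at and Gabrb2 1428203_at, 1428205_x_at and 1429685_at. Those of Gabra5 1433602_at, Gabrb1 1443834_at and Gabrb2 1450319_at stay below 0. The lines of Gabra2 1421738_at and 1455444_at, Gabra3 1436957_at, Gabrb2 1428204_at and Gabrd 1449980_a_at cross 0.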

How the data were processed

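The authors deposited 1 column of linear intensity per array, and the sources used here do not name the software behind it. With 2% of the values trimmed from either end, each array averaged 2500, so scaling had been done before deposit, and that scale was kept. The platform annotation gave 1 symbol to 34958 of 45101 probe sets, of which 34754 were found by gene ID in the RefSeq table.

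Values were taken as log2(intensity + 16). The 64 control probe sets and the 40% with the lowest mean (log2 level 8.44) were left out. KO and wild type were set against each other in limma 3.58.1 (R 4.3.3), with group alone in the model and trended empirical Bayes variances, two-sided, with Benjamini-Hochberg adjustment over all 26999 tested and a threshold of 0.05. The fit was tested on simulated data. Subunit ratios were compared by exact permutation in scipy 1.17.1. Fold changes understate changes of dim probe sets. The members, gene lists and tests were chosen with earlier results of these data known. Named genes are the members, Ppp1r1a, the nearest gene in pattern to each member, and of each list those called or else the 2 of smallest p; Plcl1, Plcl2, Gad1 and Gad2 are named outside that rule. Alternatives were pseudocounts of 1, 64 and 256, other filters, quantile and median scaling, no trend, array weights, a block for the replicate number, leaving out arrays, and, for the ratios, averaged probe sets of a gene. The number of arrays limits the precision.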

Additional observations from a re-analysis of the deposited data

How the results depend on the processing

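No subunit probe set was called by limma in any of 18 alternatives; over 323 pairs of a tested subunit probe set and an alternative the lowest adjusted p was 0.424, and 303 kept the sign of the change. The sign held in every alternative for 13 of 18 probe sets. The number of subunit probe sets with every KO value above every wild-type value was 4 as reported, against 4.97% of all tested probe sets. With arrays scaled to the same median it was 1, against 3.29%. Leaving out 1 array gave 4 to 7, against 8.67% to 16.1%. Without replicate 1 of both groups it was 8, against 22.7%. Over all tested probe sets 0 were higher and 3 lower in limma as reported (586 and 596 at an unadjusted p under 0.05). Higher counts were 0 to 3 leaving out 1 array, the 3 being without KO replicate 1, and 10 without replicate 1 of both groups; lower counts were 3 to 4 leaving out 1 array, 8 without replicate 1 of both groups and 1 without an intensity trend. The replicate number as a block gave 7 higher probe sets, none of a subunit. No label pairs the samples: deviations from the group mean correlated at 0.24, 0.05 and 0.10 for the same number, and KO replicate 2 correlated best with wild type replicate 3 (0.11). The causes were not tested. The median log2 change of all tested probe sets was 0.004 as reported, -0.002 with quantile and -0.018 with median scaling. The shift of Gabra5 over Gabra2 ran from -0.34 to 0.05 and that of Gabrb2 over Gabrb1 from -0.03 to 0.17; Gabrd over Gabra4 (-0.22 to -0.002) and Gabrd over Gabra5 (0.08 to 0.22) kept their signs in 13 of 13 alternatives.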
